A study of Mus musculus with 9 samples.

Results

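Srebf1, Acly, Acaca and Acsl6 are genes of fatty acid synthesis and activation, taken by name from the deposited table. All 4 were found among its 2996 genes. Their mRNA was sequenced from brains of aged mice, given as 24 months old, that were collected after perfusion, in 9 libraries that form 3 groups of 3. Group L drank water with 0.5 µg per litre of perfluorooctane sulfonate (PFOS), a persistent fluorinated surfactant, and group H drank 50 µg per litre, each for 7.5 months. For group C the labels state no PFOS dose, and it served as the comparison group. The labels give no strain, sex or brain region, and do not tie each library to an animal of its own. The p-values therefore set each group difference only against the spread between these libraries. That spread may not be one between animals, and could be technical.

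Fatty acids are built in the cytosol from acetyl-CoA. Citrate leaves the mitochondrion through the carrier Slc25a1, ATP citrate lyase (Acly) splits it into acetyl-CoA and oxaloacetate, and acetyl-CoA carboxylase alpha (Acaca) turns acetyl-CoA into malonyl-CoA, the committed step of the pathway. Srebf1 encodes SREBP-1, the membrane-bound transcription factor that is cleaved on demand and then switches on lipogenic enzymes, Acly and Acaca among them. Acsl6 acts at another point, joining long-chain fatty acids to coenzyme A so that they can enter membrane lipids. In the mouse brain it is known for retaining docosahexaenoic acid. Myelin and synaptic membranes make the brain a large user of these lipids.

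All 4 genes lie on chromosome 11, as do 746 of the 2996 genes of the table. In GENCODE M21 on GRCm38, Acsl6 (ENSMUSG00000020333) spans 54303798 to 54364756 on the plus strand and Srebf1 (ENSMUSG00000020538) spans 60199089 to 60222581 on the minus strand. Acaca (ENSMUSG00000020532) spans 84129672 to 84401651 on the plus strand, and Acly (ENSMUSG00000020917) spans 100476353 to 100528000 on the minus strand. Several annotated genes share their ground. Rai1 overlaps the end of Srebf1 by 109 bases on the opposite strand, Gm12224 runs antisense within Acsl6 over 13111 bases, and Gm11437 lies opposite Acaca over 19126 bases. The sources used here do not say whether reads were counted by strand, so reads from these stretches are uncertain. The authors' level, FPKM, divides reads by a gene length that equals the union of all annotated exons for each of the 4. That length is 17074 bases for Acaca, whose longest protein-coding transcript has 9513, and 5634 for Srebf1, whose longest has 4299. For Acsl6 it is 9914 against 5807, and for Acly 5279 against 4426. Levels compared between the genes below are therefore lower than per-transcript levels, most so for Acaca.

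The RefSeq promoter table for GRCm38.p6 gives 3 start sites for Srebf1, 3 for Acsl6 and 1 each for Acly and Acaca. FPKM sums the transcripts from all starts, so no level below belongs to a particular start. The 250 bases before each start were searched on both strands for TCACNCCAC (a sterol regulatory element, the SREBP site), CACGTG (an E-box, which SREBP-1 can also bind), CCAAT (the NF-Y box) and GGGCGG (the Sp1 box), the last 2 being common partners at SREBP targets. Neither TCACNCCAC nor CACGTG was found before any of the 8 starts, against 1.05% and 6.02% of the 32851 promoters of the table. With shares this low, 8 windows cannot show a lack of such sites. Only exact matches were searched for, so variant forms of these sites would be missed. CCAAT stood before 4 of the 8 starts (33.8% of all promoters) and GGGCGG before 6 (32.7%). A window each of Srebf1, Acly and Acsl6 is printed to show where these boxes stand, 5′ to 3′ along the gene, with matches in capitals. The only Acaca start in that table, base 84195438, lies inside the gene as GENCODE gives it, and all 250 bases before it are intron, so that window is not shown. For Srebf1 and Acsl6 the window shown is the last of the 3 starts and the first of the 3, each holding both boxes.
Srebf1, chr11:60210472-60210721, minus strand: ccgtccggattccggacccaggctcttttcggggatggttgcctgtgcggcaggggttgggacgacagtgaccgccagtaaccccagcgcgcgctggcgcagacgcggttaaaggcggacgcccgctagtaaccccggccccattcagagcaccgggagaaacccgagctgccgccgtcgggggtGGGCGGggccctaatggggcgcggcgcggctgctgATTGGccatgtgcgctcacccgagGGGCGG
Acly, chr11:100528001-100528250, minus strand: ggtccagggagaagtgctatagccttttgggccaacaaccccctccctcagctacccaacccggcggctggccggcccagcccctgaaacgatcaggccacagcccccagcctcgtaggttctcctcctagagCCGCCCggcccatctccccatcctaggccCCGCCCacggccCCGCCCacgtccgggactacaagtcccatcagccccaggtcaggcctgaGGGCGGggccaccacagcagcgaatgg
Acsl6, chr11:54303574-54303823, plus strand: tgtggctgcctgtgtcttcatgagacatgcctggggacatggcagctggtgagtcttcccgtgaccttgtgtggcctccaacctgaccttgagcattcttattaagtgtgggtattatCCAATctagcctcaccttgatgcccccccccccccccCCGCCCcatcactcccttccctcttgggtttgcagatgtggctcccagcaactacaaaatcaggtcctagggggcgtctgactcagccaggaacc
The Srebf1 window lies in an intron of the longer transcripts and holds CCAAT on the opposite strand, beginning 30 bases before the start, with GGGCGG at 65 and 6 bases. The Acly window lies upstream of the gene and holds GGGCGG on the opposite strand at 117, 88 and 76 bases and on the gene's strand at 27, with no CCAAT. The Acsl6 window, of which the last 26 bases lie in an exon of another transcript of the gene, holds CCAAT at 132 bases and GGGCGG on the opposite strand at 95.

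Markers of brain regions differed widely between the libraries, and this touches every value below. Of 16 cerebellar markers 4 were in the table. Their summed level was 32.1 to 871.2 FPKM in C, 35.5 to 262.2 in L and 44.1 to 91.2 in H, with the top values in C1 and L3. Gabra6, the defining granule cell gene, reached 253.7 FPKM in C1, then 55.0 in L3, and was listed at 0 in 4 other libraries. Listed at 0 in some libraries were also Ppp1r17 (1), Folr1 (1), Nkx2-1 (2) and Sim1 (6). In C2, C3, H2 and H3, where Gabra6 was at 0, nearly all of the cerebellar sum was Pvalb, at 82.2, 31.9, 43.6 and 51.4 FPKM. In L1 the sum of 79.8 FPKM held 14.8 of Gabra6. The cerebellar minus the pallial marker level was 7.49 log2 units in C1 and 5.33 in L3, against -3.06 to 1.37 in the other 7. Of 22 oligodendrocyte markers only Cnp and Aspa were in the table, with sums of 76.0 to 93.1 FPKM in C, 50.9 to 134.9 in L and 72.3 to 101.4 in H. Of 18 astrocyte markers 8 were in the table, with sums of 980.6 to 1262 FPKM in C, 1026 to 1576 in L and 828 to 1187 in H. Some marker sums set whole groups apart. The 6 hypothalamic markers of 14 in the table summed to 20.0 to 32.0 FPKM in C, 47.9 to 166.7 in L and 25.7 to 67.3 in H, and the 3 endothelial and mural ones of 13 to 10.002 to 13.4, 15.3 to 20.0 and 11.04 to 14.1. The 3 pan-neuronal ones of 13 summed to 237.0 to 293.8 FPKM in C, 281.4 to 312.2 in L and 311.5 to 338.7 in H. Taken gene by gene, only Hap1 of the hypothalamic and Myh11 of the endothelial and mural markers set C and L apart. Only Eno2 of the pan-neuronal ones set C and H apart. The other genes of each sum overlapped between those groups, and Elavl3 was highest in C1, at 57.9 FPKM. Those of pallium (2 of 14), striatum (3 of 13), meninges (3 of 9), choroid plexus (2 of 8) and microglia (1 of 14, Cd68) overlapped between C and both other groups. Single libraries still stood out, with striatal sums of 59.8 FPKM in L1 and 55.7 in H2, against 1.84 to 26.4 in the other 7. The part of tissue make-up in the differences below was not tested, apart from the regional covariate and the libraries left out. That covariate uses cerebellar and pallial markers only. In bulk tissue fewer cells of a type and less RNA per cell cannot be told apart. Library totals, recovered from the FPKM steps, were 15371513 to 20431208 reads, and the 4 genes were covered by 597 to 10197 reads per library.

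Acly was the most abundant of the 4 per length, with a mean of 54.96 FPKM over the 9 libraries. It was followed by Acsl6 at 21.5, Srebf1 at 8.51 and Acaca at 6.29 FPKM. Among the 2226 genes over 1 FPKM in at least 3 libraries, which were the genes tested, 93.0% had a lower mean level than Acly and 40.5% a lower one than Acaca. Acly and Acsl6 did not overlap in any library, and both stood above Srebf1 and Acaca in each. Srebf1 was above Acaca in every library as well, by 1.005 to 2.23 times, so that these neighbours were nearly level in some libraries. This order rests on the union of exons as length. With the longest protein-coding transcript as length, which shortens Acaca most, it would not hold between Srebf1 and Acaca in most libraries. The genes also differed in how far replicates spread. The within-group SD was 0.42 log2 units for Acly, 0.34 for Srebf1, 0.31 for Acsl6 and 0.13 for Acaca, against a median of 0.25 over the genes tested.

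**Figure D1:**
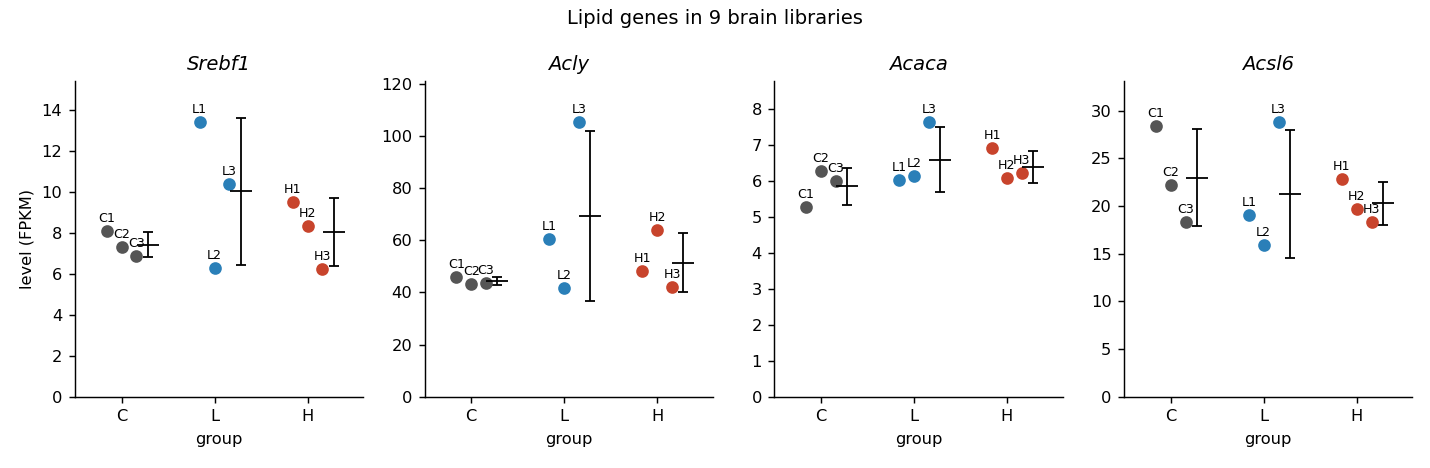
Levels of the 4 genes in FPKM (vertical axes, from 0) by group, with each point a library and the bar beside it the group mean ± SD (n = 3). The C libraries of Acly lie together between 43.1 and 46.0 FPKM, L3 stands at 105.3, and Acaca is nearly even throughout.

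Srebf1, the regulator of the pathway, was at 8.11, 7.32 and 6.89 FPKM in C1 to C3. In L1 to L3 it was at 13.4, 6.27 and 10.4 FPKM. In H1 to H3 it was at 9.54, 8.34 and 6.25 FPKM. The C libraries were close together, L1 was the highest of all 9, and L2 and H3 lay below every C library, so that all groups overlapped. Group means were 7.44 ± 0.617 FPKM in C, 10.04 ± 3.59 in L and 8.04 ± 1.67 in H (SD, n = 3). In log2(FPKM + 1), a scale on which the change of weakly expressed genes comes out too small, L differed from C by 0.33 ± 0.25 (SE; limma, adjusted p = 0.998). H differed from C by 0.085 ± 0.25 (limma, adjusted p = 0.947) and from L by -0.25 ± 0.25 (limma, adjusted p = 0.961). Without L1 the difference of L from C was 0.11, without L2 it was 0.61, and without H1 that of H from C was -0.034. H differed from L by -0.029 without L1 and by -0.52 without L2, and from C by 0.24 without H3. With the cerebellar minus pallial marker level as a covariate, H differed from C by 0.20 and from L by -0.11.

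Acly, which supplies the acetyl-CoA, was at 46.0, 43.1 and 43.7 FPKM in C1 to C3. In L1 to L3 it was at 60.4, 41.9 and 105.3 FPKM. In H1 to H3 it was at 48.4, 63.8 and 42.1 FPKM. The C libraries were within 1.07 times of each other, whereas L spread over 2.51 times and H over 1.52 times. In both exposed groups 1 library, L2 or H3, lay below all of C, so no pair of groups was separated. Group means were 44.3 ± 1.54 FPKM in C, 69.2 ± 32.6 in L and 51.4 ± 11.2 in H (SD, n = 3). L differed from C by 0.53 ± 0.30 log2 units (SE; limma, adjusted p = 0.998), with a 95% confidence interval from 0.896- to 2.34-fold of FPKM + 1. H differed from C by 0.19 ± 0.30 (limma, adjusted p = 0.903) and from L by -0.34 ± 0.30 (limma, adjusted p = 0.961). L3 carried much of the first value. Without it, L differed from C by 0.18 and H from L by 0.0099, while without L2 L differed from C by 0.84. Without H2 the difference of H from C was 0.029, and without H3 it was 0.32. With the regional covariate, H differed from C by 0.35 and from L by -0.14, and L from C by 0.49. The oligodendrocyte gene Cnp was also highest in L3, at 129.5 FPKM, and lowest in L2, at 49.1. The astrocyte gene Aldoc was at 552.3 FPKM in L3 and at 454.7 in C1. Other astrocyte genes, Slc1a2, Slc1a3 and Sox9, were not highest in L3. Slc1a2 was at 182.0 FPKM there and at 285.0 in C2. Their part in the level of Acly was not tested. C1, with the most Gabra6, had 46.0 FPKM of Acly.

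Acaca, the enzyme of the committed step, was at 5.29, 6.29 and 5.997 FPKM in C1 to C3. In L1 to L3 it was at 6.03, 6.14 and 7.64 FPKM. In H1 to H3 it was at 6.92, 6.09 and 6.22 FPKM. C1 was the lowest and L3 the highest library, and the other 7 lay between 5.997 and 6.92 FPKM. Group means were 5.86 ± 0.515 FPKM in C, 6.60 ± 0.903 in L and 6.41 ± 0.447 in H (SD, n = 3). L differed from C by 0.14 ± 0.13 log2 units (SE; limma, adjusted p = 0.998), H from C by 0.11 ± 0.13 (limma, adjusted p = 0.89) and H from L by -0.033 ± 0.13 (limma, adjusted p = 0.972). The small spread gave this gene the narrowest intervals of the 4. They ran from 0.882- to 1.32-fold for H against C, 0.903- to 1.35-fold for L against C and 0.798- to 1.197-fold for H against L, all of FPKM + 1. Without L3 the difference of L from C was 0.049, and without C1 that of H from C was 0.051. Without both C1 and L3 the difference of L from C was -0.012, and without L3 alone that of H from L was 0.063.

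Acsl6, the acyl-CoA synthetase, was at 28.4, 22.2 and 18.3 FPKM in C1 to C3. In L1 to L3 it was at 19.1, 15.9 and 28.8 FPKM. In H1 to H3 it was at 22.8, 19.7 and 18.4 FPKM. C1 and L3, the libraries rich in cerebellar markers, were the highest, and the other 7 lay between 15.9 and 22.8 FPKM. Group means were 23.0 ± 5.11 FPKM in C, 21.3 ± 6.72 in L and 20.3 ± 2.29 in H (SD, n = 3). H differed from C by -0.16 ± 0.23 log2 units (SE; limma, adjusted p = 0.894), L from C by -0.13 ± 0.23 (limma, adjusted p = 0.998) and H from L by -0.027 ± 0.23 (limma, adjusted p = 0.98). Without C1 the difference of H from C was 0.0034 and that of L from C was 0.031. Without C3, H differed from C by -0.30. Without L3, L differed from C by -0.36 and H from L by 0.20, and without L2 these were 0.050 and -0.21. With the cerebellar minus pallial marker level as a covariate, H differed from C by 0.022 ± 0.15 and from L by 0.20 ± 0.15. L then differed from C by -0.18 ± 0.14, against -0.13 without the covariate. The SEs were smaller than without it.

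**Figure D2:**
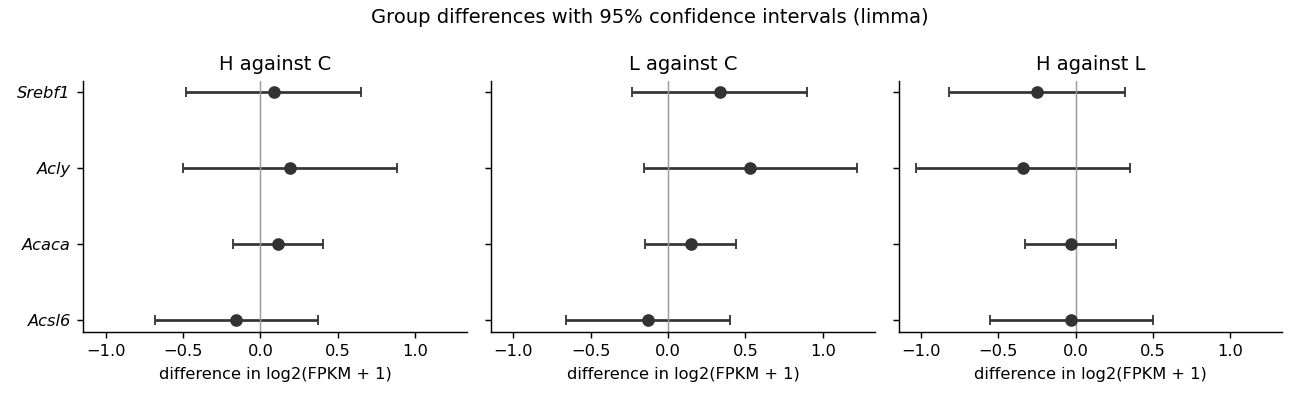
Differences between groups in log2(FPKM + 1) for the 4 genes (points) with 95% confidence intervals (bars) from limma, in 1 panel per comparison. Every interval crosses 0, and those of Acaca are the narrowest.

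None of the 12 differences passed the threshold of an adjusted p of 0.05, and the groups overlapped in all 12. This was also the state of the table as a whole. In H against C 0% of the 2226 genes passed, in L against C 0% and in H against L 0%, and the F test over the 3 groups called 0 (limma, lowest adjusted p = 0.958). At an unadjusted p under 0.05 there were 71, 87 and 30 genes in these comparisons with limma, and 68, 77 and 32 with limma-voom on the recovered reads, which also called 0. These counts hung on single libraries. In H against C leaving out C2 gave 274 genes and leaving out C1 gave 38, while 18 were left on dropping H1 and 19 on dropping H2. In L against C there were 142 without C1, 134 without C2, 45 without L1, 160 without L2 and 203 with the regional covariate. In H against L there were 93 without C1, 18 without L1, 184 without L2, 19 without L3, 19 without H2 and 7 without H3. None of the 4 genes was among the 71, 87 or 30 with all libraries in. Without L2, the unadjusted p was 0.0146 for Srebf1 and 0.013 for Acly in L against C, and 0.0281 and 0.0392 in H against L (limma, adjusted p = 0.673, 0.669, 0.556 and 0.556). Groups did not overlap in 10.3% of genes for H against C, 6.65% for L against C and 9.07% for H against L. In direction, 3 of the 4 genes had higher means in H than in C, where 52.7% of all genes did, and Acsl6 had a lower one. In L against C the same 3 of 4 were higher, where 56.3% of all genes were. In H against L 0 of 4 were higher, where 44.9% of all genes were. H against C and L against C share the C libraries. Directions of Srebf1, Acaca and Acsl6 against C, and of Acly, Acaca and Acsl6 in H against L, turned in some fits with libraries left out.

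**Figure D3:**
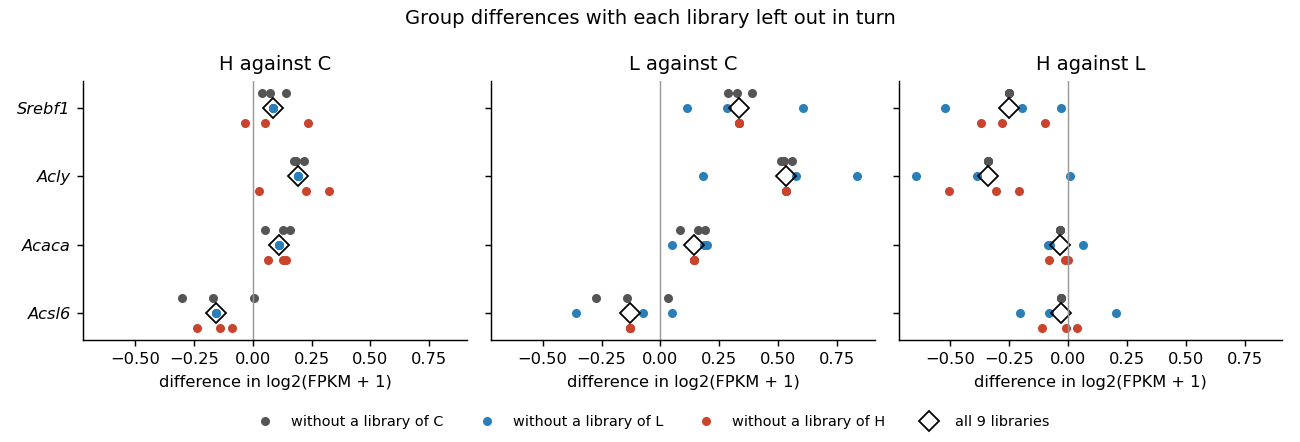
Difference in log2(FPKM + 1) for each gene and comparison with all 9 libraries (diamonds) and with each library left out in turn (points, coloured by the group of the library left out). For Acly in L against C the value runs from 0.18 without L3 to 0.84 without L2, while Acaca moves least.

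Since all 4 values come from the same library, their ratios are free of library scaling. Acly stood at 6.77 to 13.8 times Acaca, with the top ratios in L3 (13.8), H2 (10.5) and L1 (10.03) and 6.77 to 8.70 in the other 6 libraries. The first enzyme of the route was thus uneven across libraries in which the second was nearly even. L1 and H2 also had the highest striatal marker sums, 59.8 and 55.7 FPKM, against 2.98 in L3. The part of regional make-up in this ratio was not tested. The ratio of Acly to Srebf1 was 5.67, 5.89 and 6.34 in C1 to C3 and ran from 4.50 in L1 to 10.1 in L3. In L1 Srebf1 stood high relative to Acly, and in L3 Acly stood high relative to Srebf1. The ratio of Acly to Acsl6 was 1.62, 1.94 and 2.39 in C1 to C3 and 3.17, 2.63 and 3.65 in L1 to L3. In H1 to H3 it was 2.12, 3.24 and 2.29. C and L did not overlap in this ratio, the only such case among 18 comparisons of 6 ratios, and it was picked out after the values were seen. Among single genes 6.65% did not overlap in L against C, and no share was obtained for ratios of other genes.

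Other genes of the pathway were taken from lists of 143 genes, of which 25 were in the table and 23 were tested. The others were not analysed here, the fatty acid synthase gene Fasn and the stearoyl-CoA desaturases among them. None of the 23 passed the threshold in any comparison (limma). In H against C 12 lay higher and 11 lower, with a median difference of 0.019 log2 units where all genes had 0.018. Without C1, with or without L3, 17 of the 23 lay higher in H than in C, and with the regional covariate 16 did. In L against C 15 lay higher and 8 lower, with a median of 0.16 where all genes had 0.032. In H against L 7 lay higher and 16 lower, with a median of -0.058 where all genes had -0.027, but without L3 11 lay higher. L3 held the highest level of 9 of the 23 genes (39.1%), compared with 16.7% of all tested genes. C1 held that of 5 (21.7%), compared with 29.5% of all tested genes.

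Groups did not overlap in 4 of the 23 for H against C (Nr1h3, Slc25a1, Dlat and Lpcat3), in 1 for L against C (Cyp51) and in 1 for H against L (Acot8, an acyl-CoA thioesterase). Over all tested genes this was so for 10.3%, 6.65% and 9.07%.

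The gene of citrate and acetyl-CoA supply with the smallest p-value was Slc25a1, which exports the citrate that Acly cleaves. It was at 7.67, 9.55 and 9.56 FPKM in C1 to C3, at 15.4, 9.08 and 22.9 in L1 to L3, and at 11.1, 13.4 and 10.4 in H1 to H3. All H libraries lay above all C libraries, as for 10.3% of genes in either direction, whereas L2 lay within C. Slc25a1 differed by 0.68 ± 0.28 log2 units between L and C (SE; limma, unadjusted p = 0.04, adjusted p = 0.998) and by 0.34 ± 0.28 between H and C (limma, adjusted p = 0.89). The other 2 genes of this list were Cs, the citrate synthase, and Dlat, a subunit of the pyruvate dehydrogenase complex. Cs differed by 0.16 in L and 0.13 in H against C, and Dlat by 0.17 and 0.15. Both were highest in L3 and lowest in C1.

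Among regulators, Rxra, the nuclear receptor that partners LXR at the Srebf1 gene, differed by 0.46 ± 0.21 between L and C (limma, adjusted p = 0.998). Nr1h3, which encodes LXR alpha, differed by -0.81 ± 0.45 between H and C without overlap (limma, adjusted p = 0.89), but stood at 5.54 FPKM in C1 and at 1.09 in C2 and C3. Med15, a Mediator subunit that SREBP binds, differed by -0.33 ± 0.15 between H and C (limma, adjusted p = 0.89). Insig2, which holds SREBP in the endoplasmic reticulum, differed by 0.17 in L and 0.12 in H against C. Mlxipl, the glucose-responsive lipogenic factor ChREBP, was at 0.281 to 0.650 FPKM and was not tested. Lpin1, a phosphatidate phosphatase and regulator of lipid genes, was at 12.5 FPKM in L3 and at 3.21 to 6.96 elsewhere.

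Of enzymes further down the route, the elongase Elovl1, which makes very long saturated chains, was at 11.7 FPKM in L3 and 3.82 in L2, the extremes of the 9. It differed by 0.18 ± 0.31 between L and C. The desaturase Fads1 differed by 0.18 in L and 0.19 in H against C, with its lowest level in C1, 31.0 FPKM. Acsl1, the only other acyl-CoA synthetase of the list in the table, was at 6.003 to 7.96 FPKM and differed by 0.053 in H and -0.10 in L against C. Acsf3, the malonyl-CoA synthetase of mitochondria and the only gene of the fatty acid synthase list in the table, differed by 0.20 in H and 0.19 in L. Lpcat3, which inserts polyunsaturated chains into phospholipids, differed by -0.31 ± 0.20 between H and C without overlap (limma, adjusted p = 0.89) and by -0.30 ± 0.20 between H and L (limma, adjusted p = 0.961). The fatty acid binding protein gene Fabp7, a marker of astrocytes and radial glia, differed by -0.60 ± 0.29 between H and L (limma, adjusted p = 0.961). Of sterol synthesis, Cyp51 was higher in all L than in all C libraries, by 0.43 ± 0.20 (limma, adjusted p = 0.998), with 25.7 FPKM in L3 and 15.9 and 16.6 in L1 and L2. Between H and L it differed by -0.26 ± 0.20. Mvd of the same route differed by 0.22 between L and C and was lowest in L3.

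**Figure D4:**
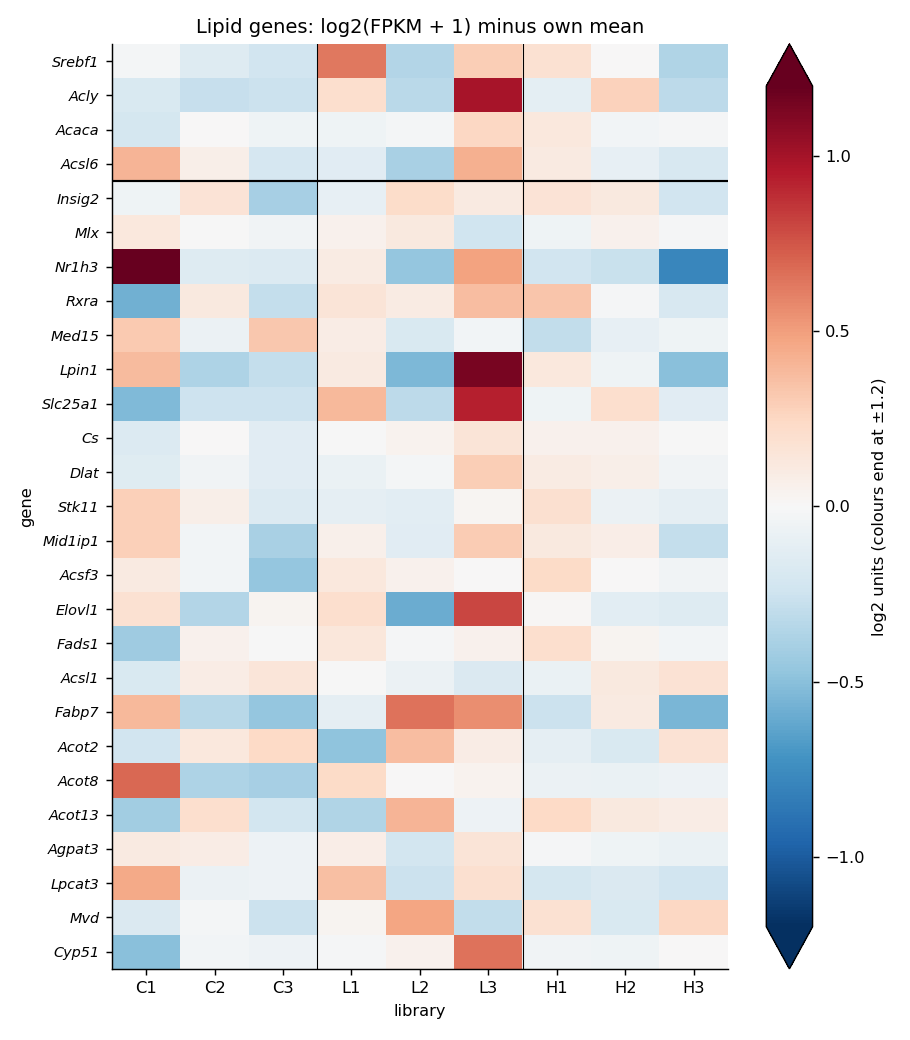
Levels of the 4 genes (above the line) and the 23 tested pathway genes in the 9 libraries, as log2(FPKM + 1) minus the gene's own mean (colour, ending at ±1.2). Acly, Slc25a1, Lpin1, Elovl1 and Cyp51 share their highest level in L3, and Nr1h3 has its highest in C1.

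To see which genes followed each of the 4 most closely, levels were centred on each gene's own mean and the absolute differences averaged over the 9 libraries. Of 2225 other tested genes the nearest to Acly was Slc25a1, its partner in citrate export, at 0.11 log2 units, where a flat profile would lie 0.33 away. Without C1 and L3 it was again the nearest, at 0.072 where a flat profile lies 0.20 away. Next over the 9 libraries came Lgmn, a lysosomal protease (0.11), Gstm7, a glutathione transferase (0.12), Ndrg1 (0.13) and Hebp2 (0.13). Without C1 and L3 these ranked 23, 20, 59 and 33. Hebp2 was weak, at 0.457 FPKM in H3 and 3.36 in L3, and log2(FPKM + 1) makes such changes too small. Nearest to Srebf1 were the signalling protein gene Shh (0.097), Amotl1 (0.10), the receptor kinase genes Axl (0.10) and Ddr1 (0.11) and the kinesin gene Kif1c (0.12), where a flat profile lies 0.25 away. Shh was also the nearest without C1 and L3 (0.048), and had 1.19 to 3.02 FPKM. Amotl1, Axl, Ddr1 and Kif1c then ranked 22, 17, 21 and 53. Nearest to Acsl6 were Tmbim1 (0.074), the brain creatine kinase gene Ckb (0.086), the creatine transporter gene Slc6a8 (0.089), Camta1 (0.091) and Rab21 (0.091), where a flat profile lies 0.23 away. Like Acsl6, these 5 had their 2 highest levels in C1 and L3, which follows largely from their being picked for nearness to it. Without C1 and L3 they ranked 7, 72, 63, 13 and 16. For Acaca the nearest were Wars (0.039), Dhdds (0.039), Pafah1b2 (0.046), Sod2 (0.048) and Gdi2 (0.050), but a flat profile lay only 0.085 away. Their ranks without C1 and L3 were 8, 2, 48, 32 and 90. Among themselves the 4 genes were farther apart. Srebf1 ranked 108 of 2225 in nearness to Acly (0.23), Acaca 468 and Acsl6 516. Genes of the same libraries share depth and tissue make-up, and nearness here is a description of 9 libraries.

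**Figure D5:**
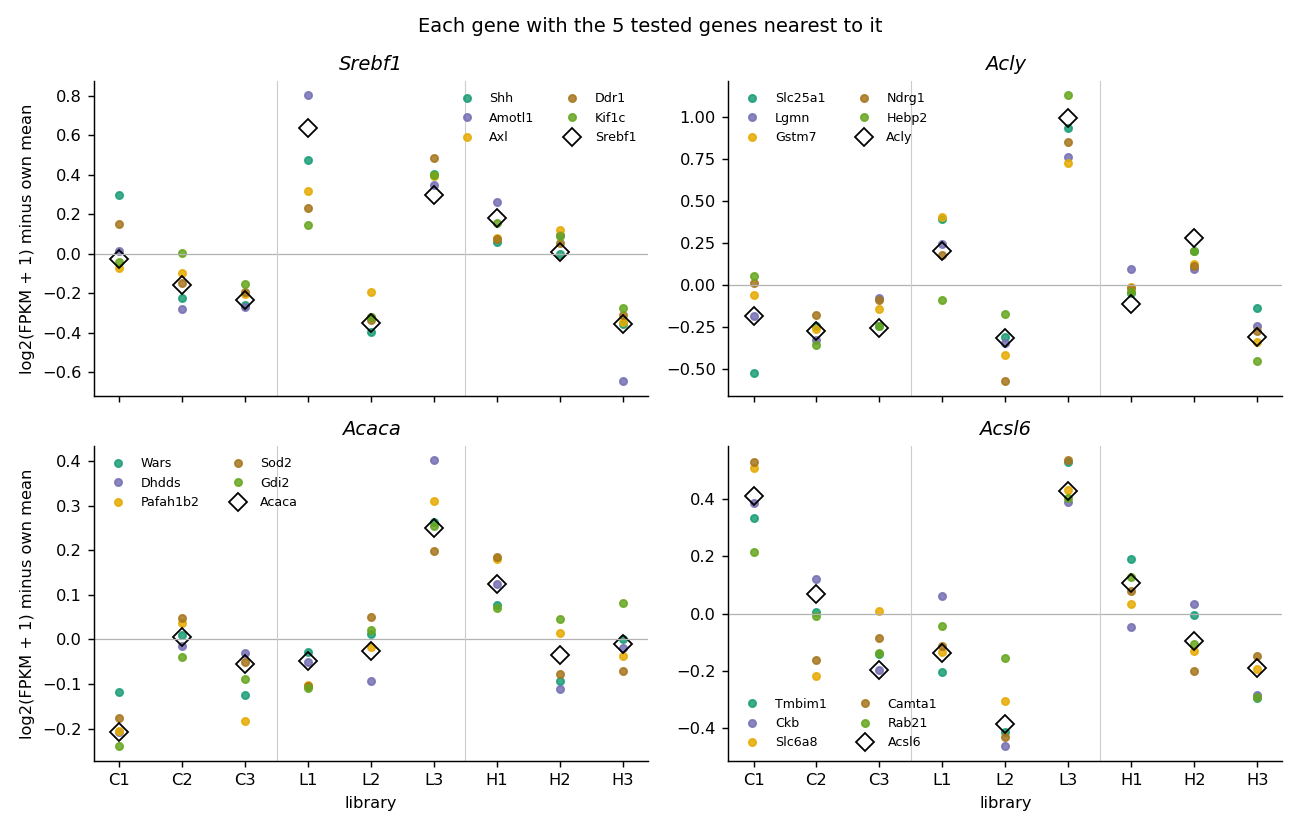
Centred levels, log2(FPKM + 1) minus the gene's own mean, of each of the 4 genes (open diamonds) and its 5 nearest tested genes (points) in the 9 libraries. Slc25a1 follows Acly closely except in C1, and the neighbours of Acsl6, picked for nearness to it, stand high in C1 and L3.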

How the data were processed

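Per the file headers, the authors deposited 1 table that holds FPKM values for 9 libraries beside each gene's length. GRCm38 is the build in the submitters' processing notes. The sources used here name no aligner, counting program or strand setting. Table coordinates equalled GENCODE M21 for 20 of 2996 genes although spans were equal for 2950, so coordinates were taken from GENCODE M21 by identifier. FPKM times length was a whole multiple of 1 read, within 0.01 reads, for 100% of values, which gave the reads per gene. Promoter sequences are from RefSeq (GRCm38.p6).

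The 2226 genes above 1 FPKM in 3 or more libraries were tested on log2(FPKM + 1) in limma 3.58.1 under R 4.3.3, with 3 group means over 9 libraries, a mean-variance trend and robust moderation. P-values are two-sided and Benjamini-Hochberg adjusted over all 2226 genes. The fit was also run on simulated reads, with the same spread setting for all genes and no regional differences. That run cannot show how the fit fares on these libraries. The genes, pathway and marker lists and tests were chosen with earlier results of these data known. Named beside the 4 genes are the 3 pathway genes with the smallest p in each comparison, the acyl-CoA synthetase, synthase, elongase and desaturase genes in the table, and the 5 nearest genes of each. Insig2, Lpin1, Mlxipl, Cs, Dlat, Acot8 and Mvd, and the genes Cnp, Aldoc, Slc1a2, Slc1a3 and Sox9, were named after their values were seen. Alternatives covered the pseudocount (0.1, 0.01), the filter, scaling, limma-voom, fits of 2 groups alone, a block for the replicate number, moderation, a regional covariate and each library left out. Nearness over 7 libraries was added after the data were seen. Python 3.11.15 with pandas 2.3.3 made the tables, and matplotlib 3.10.9 the figures.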

Additional observations from a re-analysis of the deposited data

How the results depend on the processing

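Over 20 alternatives the count of genes past the threshold was 0 in each comparison, and none of the 12 differences of the 4 genes passed (limma, lowest adjusted p = 0.556, for both Srebf1 and Acly in H against L without L2). The sign turned in 16 cases. The cause was not tested beyond what leaving libraries out shows.

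Without C1 and L3 together, H against C was 0.0034 for Acsl6, L against C was -0.012 for Acaca, and H against L was 0.0099 for Acly, 0.063 for Acaca and 0.20 for Acsl6. With the regional covariate, Acsl6 was at 0.022 in H against C and 0.20 in H against L, Acly at 0.35 and -0.14, and Srebf1 at 0.20 and -0.11. With quantile normalization Acaca was at 0.0032 in H against L.

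With each library left out, H against C ran from -0.034 to 0.24 for Srebf1, 0.029 to 0.32 for Acly, 0.051 to 0.16 for Acaca and -0.30 to 0.0034 for Acsl6. L against C ran from 0.11 to 0.61, 0.18 to 0.84, 0.049 to 0.20 and -0.36 to 0.050 in the same order. H against L ran from -0.52 to -0.029, -0.64 to 0.0099, -0.086 to 0.063 and -0.21 to 0.20.

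With the replicate number as a block, log2 differences were the same by construction, 0.53 for Acly in L against C, and 0 genes passed. Deviations of same-numbered libraries from their group means correlated at -0.51 to 0.68, with 3 of 9 pairs over 0.1. Since these deviations also carry the regional differences between libraries, they cannot show whether the numbers pair the samples. Of the 23 pathway genes, 17 lay higher in H than in C without C1, with or without L3, and 16 with the covariate, in place of 12. In H against L 12 lay higher with the covariate, 11 without L3, with or without C1, and 4 without H1, in place of 7. In L against C 14 to 17 lay higher, in place of 15. The intervals limit what can be seen, since 3 libraries a group leave changes of up to 2.34-fold within the interval for Acly in L against C.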
